A study of Mus musculus with 40 samples.

Results

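Imprinted growth genes of mouse embryonic fibroblasts (MEFs) were followed across genotype and doxorubicin treatment. The 10 genes, chosen by symbol, were Igf2, Dlk1, Mest, Peg3 and Plagl1, which are expressed mainly from the paternal allele, and H19, Meg3, Rian, Mirg and Grb10, which are expressed mainly from the maternal allele in most tissues. All 10 were found among the 24062 genes of the count table, and all 10 passed the filter on low counts in each comparison. RNA-Seq was done on primary MEFs of passage 3 from embryos at 13.5 days post coitum on a mixed C57BL/6J-129P2OlaHsd background. Sall2, which encodes a transcription factor with zinc fingers, was intact (WT), disrupted on a single allele (Het) or disrupted on both (KO), and cells stayed untreated (control) or received 1 μM doxorubicin, a topoisomerase poison, over 16 h. There were 1 WT, 1 Het and 3 KO embryos in control, and 1 WT, 1 Het and 2 KO libraries with doxorubicin, because the libraries of KO embryos 2 and 3 differed by less than the sampling noise, with identical counts for 24062 of 24062 genes, and were counted as 1 sample. The WT and Het groups are thus 1 embryo each. Since the gene was targeted in 129P2-derived ES cells, a 129P2 segment surrounds Sall2 on chromosome 14 in Het and KO, and none of the 10 genes lies on that chromosome. The paper also describes introgressed variants of that strain on other chromosomes of this line, with a distribution that differed between WT and KO on several. Whether the 10 genes have the same background in all embryos was not tested.

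In imprinting, a gene is expressed from the allele of a single parent, according to DNA methylation set in the germ line. Many paternally expressed genes promote fetal growth, as does the growth factor Igf2, while many maternally expressed genes restrain it, as does the receptor adaptor Grb10. Several of them lie in clusters in which a long noncoding RNA is made from the allele on which protein-coding neighbours are silent, and they are highly expressed in embryonic mesenchyme and fall after birth. The counts do not separate the parental alleles, so imprinting itself was not measured.

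The untreated libraries held 24122414 counts for WT, 19520477 for Het and 23713186, 21592313 and 18236276 for KO embryos 1, 2 and 3. The treated ones held 21350978 counts for WT, 15560728 for Het and 19527783 and 21601522 for KO embryos 1 and 2. Levels are given in CPM, the counts relative to the TMM-scaled total of the library, and on that scale 3 counts correspond to at most 0.169 CPM. The untreated level of Sall2 was 38.0 CPM for WT, 24.0 CPM for Het and 20.1, 24.4 and 19.1 CPM for KO embryos 1, 2 and 3. Under doxorubicin Sall2 had 9.36 CPM for WT, 7.80 CPM for Het and 4.19 and 3.72 CPM for KO. The libraries labelled KO thus lay below WT in both treatments but still held reads of the gene, with Het among the KO libraries in control and between WT and KO with doxorubicin. Sall2 fell with doxorubicin, by 2.09 on the log2 scale (SE 0.204, edgeR FDR 7.96e-05), and did not pass between KO and WT at an FDR under 0.01, with log2 fold changes of -0.81 in control and -1.24 with doxorubicin (edgeR FDR 1.00 and 0.0187).

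The control libraries of Het and of KO embryo 3 stood apart from the other 3 control libraries. The 10 interferon state genes, all in the table, summed to 2171 CPM in Het and 2386 CPM in KO embryo 3, against 46.2 CPM in WT and 63.7 and 47.5 CPM in KO embryos 1 and 2. Their most abundant gene was Bst2, at 471 and 574 CPM in those libraries and between 11.8 and 19.9 CPM in the others. The macrophage genes, 8 of 9 in the table and none at 0 in any library, summed to 558 CPM in Het and 422 CPM in KO embryo 3, and to 176, 129 and 102 CPM in WT and KO embryos 1 and 2. Lyz2 led that list, at 336 and 289 CPM against 96.2, 63.3 and 52.0 CPM, while the macrophage gene Mrc1 was lower in Het and KO embryo 3, at 0.287 and 0.271 CPM, than in WT at 9.16 CPM.

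The 10 fibroblast genes were all detected in every library, so that the label of the cells had its markers. Their sum was 21319 CPM in Het and 17191 CPM in KO embryo 3, lower than the 100072, 82829 and 90909 CPM of WT and KO embryos 1 and 2, with Fn1 the most abundant. The 7 proliferation genes, led by Top2a, summed to 266 CPM in Het and 362 CPM in KO embryo 3 and to 758, 922 and 773 CPM in the others. With doxorubicin the Het library still had the higher interferon sum, 1417 CPM against 331, 392 and 417 CPM in WT and KO, the higher macrophage sum, 564 CPM against 131, 114 and 90.1 CPM, and the lower fibroblast sum, 23139 CPM against 63063.5, 58218 and 50147 CPM. The part of these genes' cells or states in the levels below was not tested. In bulk RNA, fewer cells of a kind and less RNA per cell cannot be told apart.

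**Figure D1:**
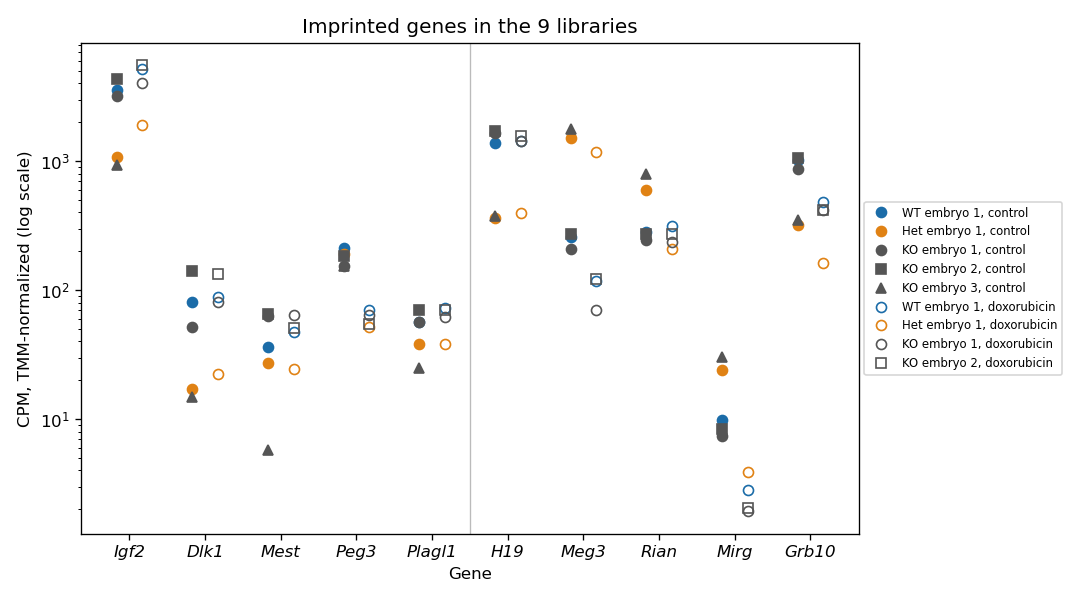
Level of each of the 10 genes in the 9 libraries, in TMM-normalized CPM on a log scale, with filled symbols for control, open symbols for doxorubicin, colours for genotypes and shapes for embryos. In control, Het and KO embryo 3 lie low for Igf2, Dlk1, H19 and Grb10 and high for Meg3, Rian and Mirg.

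Per kilobase of exon, Igf2 had the highest median of the 5 control libraries, 604 CPM per kb, followed closely by H19 at 603 CPM per kb and then by Grb10 at 171 CPM per kb. Over these libraries Igf2 went from 177 to 830 and H19 from 158 to 752 CPM per kb. Peg3, Rian and Meg3 followed with medians of 21.1, 19.5 and 17.5 CPM per kb, and Mest, Dlk1 and Plagl1 with 13.2, 10.9 and 10.4 CPM per kb. Mirg was lowest, at 1.59 CPM per kb. The exon lengths are of GENCODE genes, while the authors counted reads over iGenomes genes. The order, with the close values of Igf2 and H19, thus depends on how far these gene models match. Within libraries, H19 lay above Grb10 and Grb10 above Peg3 in 5 of 5 control libraries, Igf2 above H19 and Plagl1 above Mirg in 4 of 5. From Peg3 to Plagl1, each gene lay above the next in this order in only 2 or 3 of the 5, so that the order of these 6 genes differed between libraries. Meg3 lay above Grb10 in untreated Het, at 96.2 against 62.4 CPM per kb, in untreated KO embryo 3, at 114 against 68.2 CPM per kb, and in treated Het, at 74.8 against 31.4 CPM per kb. By their medians with doxorubicin, Igf2, H19 and Grb10 were the first 3, at 878, 626 and 81.4 CPM per kb, while Peg3 went from place 4 to place 9, at 6.82 CPM per kb.

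Igf2, a fetal growth factor that signals through the Igf1 and insulin receptors, lies on chromosome 7 from 142650766 to 142666816 (GRCm38). Its untreated level was 3549.5 CPM for WT, 1068 CPM for Het and 3169, 4355 and 930.4 CPM for KO embryos 1, 2 and 3. Treated cells had 5161 CPM for WT, 1906 CPM for Het and 4060.1 and 5524 CPM for KO embryos 1 and 2. Each of the 4 embryos with both libraries had more Igf2 with the drug, yet the treatments overlapped, with Het low in both. Of the exon bases of Igf2, 70.4% are shared with other genes, mostly with Gm49394, a gene annotated on the same strand that is not in the count table.

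Dlk1, a membrane protein that holds back adipocyte differentiation, lies on chromosome 12 from 109452823 to 109463336. Untreated cells had 81.4 CPM for WT, 17.1 CPM for Het and 52.2, 142 and 14.8 CPM for KO embryos 1, 2 and 3, a range of 9.59-fold. The treated levels were 88.0 CPM for WT, 22.4 CPM for Het and 81.4 and 134 CPM for KO, so the treatments overlapped. Even KO embryos 1 and 2 thus differed by more than either did from WT on the CPM scale in control. Mest, a hydrolase-like protein of mesoderm, had the widest control range of the 10 genes as a fold, 11.4-fold, from 5.73 CPM in KO embryo 3 to 65.2 CPM in KO embryo 2. Its exons share 32.9% of their bases with those of Copg2 on the opposite strand, and reads over both genes may have been lost. Plagl1, a zinc finger transcription factor, ranged from 24.8 to 70.7 CPM in control and from 38.2 to 72.4 CPM with doxorubicin.

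Peg3, a large zinc finger protein on chromosome 7 from 6703892 to 6730431, had the narrowest control range of the 10 genes, 1.38-fold. The untreated libraries had 211 CPM for WT, 191 CPM for Het and 154, 184 and 153 CPM for KO embryos 1, 2 and 3. After doxorubicin Peg3 was at 70.5 CPM for WT, 52.0 CPM for Het and 64.0 and 54.5 CPM for KO. The treatments did not overlap, and untreated Het and KO embryo 3 lay near the other control libraries.

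H19, a long noncoding RNA that shares its enhancers with Igf2, lies on chromosome 7 from 142575529 to 142578143. Its untreated level was 1378 CPM for WT, 361 CPM for Het and 1647, 1719.8 and 373 CPM for KO embryos 1, 2 and 3. Treated cells had 1421 CPM for WT, 394 CPM for Het and 1441.5 and 1558 CPM for KO, within the control range. H19 was low in the same libraries as Igf2, although the parental alleles that express them differ. H19 had 0.388, 0.338, 0.520, 0.395 and 0.401 counts per count of Igf2 in WT, Het and KO embryos 1, 2 and 3 in control, and 0.275, 0.207, 0.355 and 0.282 in WT, Het and KO embryos 1 and 2 with doxorubicin. This ratio was lower with the drug in 4 of 4 embryos, which was not tested.

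Meg3, Rian and Mirg are noncoding RNAs transcribed in the same direction from the Dlk1 to Dio3 interval of chromosome 12, where they start at 109541001, 109603940 and 109729764. Untreated Meg3 was at 259 CPM for WT, 1509 CPM for Het and 207, 275 and 1788 CPM for KO embryos 1, 2 and 3. Under doxorubicin Meg3 had 118 CPM for WT, 1173 CPM for Het and 70.3 and 121 CPM for KO, so only the Het library overlapped the control range. In Het and KO embryo 3 Meg3 was thus high where Dlk1 of the same interval was low, and Meg3 had 88.2 and 121 counts per count of Dlk1 there against 3.18, 3.96 and 1.94 in WT and KO embryos 1 and 2.

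Rian, the host of C/D box snoRNAs, had 281 CPM for WT, 594 CPM for Het and 246, 270.5 and 796 CPM for KO embryos 1, 2 and 3 without the drug. The treated levels were 313 CPM for WT, 208 CPM for Het and 237 and 273 CPM for KO, so that Het no longer stood above the others. Mirg, the host of many microRNAs, had 9.86 CPM for WT, 24.2 CPM for Het and 7.45, 8.40 and 30.3 CPM for KO embryos 1, 2 and 3 without the drug. After doxorubicin Mirg was at 2.84 CPM for WT, 3.90 CPM for Het and 1.93 and 2.07 CPM for KO, below all of the control libraries.

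Grb10, an adaptor that restrains signalling of the insulin and Igf1 receptors, lies on chromosome 11 from 11930508 to 12038683. Untreated cells had 1023 CPM for WT, 320.3 CPM for Het and 876, 1065 and 349.7 CPM for KO embryos 1, 2 and 3. Under doxorubicin Grb10 was at 479 CPM for WT, 161 CPM for Het and 418 and 417 CPM for KO. Grb10 was lower with the drug in each embryo, while the treatments overlapped through the low control values of Het and KO embryo 3.

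Doxorubicin was compared with control over the 9 libraries with genotype as a covariate, by edgeR's two-sided quasi-likelihood test with Benjamini-Hochberg adjustment (FDR) over all genes tested, at an FDR under 0.01. Peg3 and Mirg fell. These 2 of the 10 genes passed, against 42.1% of the 14883 genes tested, of which 21.9% were higher and 20.2% lower, so that the share of the 10 genes lay below that of all genes. The log2 fold change was -1.54 for Peg3 (SE 0.146, edgeR FDR 7.30e-05; SE is the standard error) and -2.56 for Mirg (SE 0.502, edgeR FDR 0.00259), both lower in 4 of 4 embryos. The same 2 genes had treatments that did not overlap in CPM, against 47.3% of the genes tested. Mirg did not pass with the Het embryo left out (edgeR FDR 0.0144), without KO embryo 1 (0.0130), without KO embryo 2 (0.0183) or in KO alone (0.0353), at log2 fold changes between -2.92 and -2.56.

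Since both libraries of an embryo carry the same number, the comparison was also fitted with the embryo as a replicate block, to which the unpaired KO embryo 3 adds nothing. With it 59.4% of the genes passed, 30.6% higher and 28.8% lower, and 5 of the 10. Igf2 rose, by 0.57 on the log2 scale (SE 0.118, edgeR FDR 0.00309), and was higher in 4 of 4 embryos. Grb10, at a log2 fold change of -1.07 (SE 0.101, edgeR FDR 5.86e-05), and Meg3, at -1.003 (SE 0.186, edgeR FDR 0.00173), fell and were lower in 4 of 4 embryos. Peg3 and Mirg passed again, with log2 fold changes of -1.57 and -2.06. If the KO library that occurs under both numbers is taken as that of KO embryo 3, 2 of the 10 genes passed against 40.5% of all genes, and Igf2 (1.10, edgeR FDR 0.0534), Meg3 (-1.62, 0.0334) and Grb10 (-0.69, 0.0662) did not.

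In the fit without the block, the log2 fold change of Igf2 was 0.78 (edgeR FDR 0.154), that of Meg3 -1.91 (0.0849) and that of Grb10 -0.90 (0.0355). Without KO embryo 3, 4 of the 10 genes passed against 60.9% of all genes, with Meg3 at -0.99 (edgeR FDR 0.00315) and Grb10 at -1.08 (2.96e-05). A fit without the Het libraries and KO embryo 3, chosen after the data were seen, also gave 4, against 67.8% of all genes, with Meg3 at -1.22, Mirg at -1.88 and Grb10 at -1.14, while Igf2 did not pass (0.45, edgeR FDR 0.0417). Both fits take the treated library that occurs under numbers 2 and 3 as that of KO embryo 2.

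Dlk1, Mest, Plagl1, H19 and Rian did not pass in either fit. Within embryos, their log2 changes from control to doxorubicin lay between -0.09 and 0.64 for Dlk1, -0.36 and 0.38 for Mest, -0.01 and 0.35 for Plagl1 and -0.19 and 0.13 for H19. For Rian the value was 0.15 for WT, -0.05 and 0.01 for KO embryos 1 and 2, and -1.51 for Het. The median log2 fold change in the fit without the block was 0.34 for the paternally expressed genes and -0.90 for the maternally expressed genes, beside -0.02 over all genes tested. Without KO embryo 3 these medians were 0.17 and -0.99, and with the block 0.18 and -1.003, beside 0.03 over all genes in either fit. With the block and the repeated library taken as that of KO embryo 3 they were 0.79 and -0.70. The maternally expressed genes include Meg3, Rian and Mirg of the same interval, and the paternally expressed Peg3 went against its median, at -1.54 without the block. The other imprinted genes had medians of 0.02 for the paternal and 0.23 for the maternal list in that fit. A part of parental origin was not tested.

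**Figure D2:**
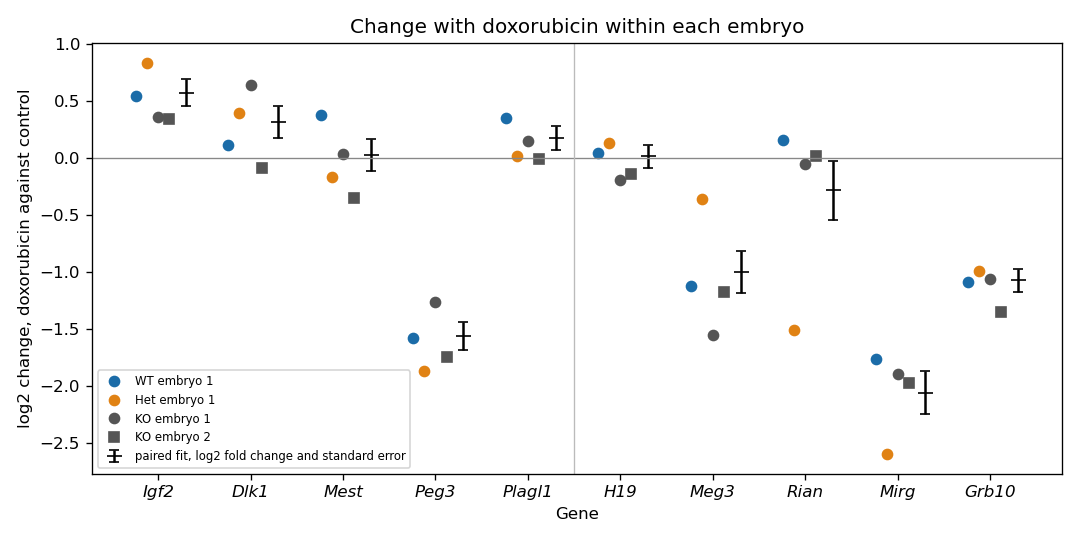
Log2 change of each gene from control to doxorubicin within the 4 embryos that have both libraries (log2 CPM with a prior count of 2), with the log2 fold change and standard error of the fit with the embryo as a block in black. Peg3, Meg3, Mirg and Grb10 lie below 0 and Igf2 above 0 in 4 of 4 embryos.

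KO was compared with WT to ask which levels go with the loss of Sall2. In control 0 of the 10 genes passed, as did 0% of the 14470 genes tested, of which 10 had an unadjusted p under 0.05 by edgeR, while DESeq2 also called 0 and had 94. With RUVg and an exact test 163 genes passed, Meg3 among them at a log2 fold change of 0.56 (FDR 0.00562 by edgeR's exact test), and without KO embryo 1 or 2 edgeR called 47 or 41 genes and 0 of the 10. The largest log2 fold change of the 10 was that of Meg3, 1.60 (SE 1.55), whose log2 ratios to WT were -0.33, 0.08 and 2.79 for KO embryos 1, 2 and 3, and which by edgeR was at -0.08 without KO embryo 3, not called in either fit. Het, with 1 embryo and no replicate check, had log2 ratios to WT of 2.54 for Meg3, 1.08 for Rian, 1.28 for Mirg, -1.73 for Igf2, -1.93 for H19, -2.24 for Dlk1 and -1.68 for Grb10. KO embryo 3 had 1.503 for Rian, 1.61 for Mirg, -1.93 for Igf2, -1.89 for H19, -2.45 for Dlk1 and -1.55 for Grb10. Mest and Plagl1 were at -2.65 and -1.19 in KO embryo 3 but at -0.42 and -0.58 in Het, and Peg3 was at -0.46 and -0.14. KO embryos 1 and 2 lay between -0.64 and 0.83 for all 10 genes. Het and KO embryo 3, whose ratios had the same sign for all 10 genes, were the untreated libraries with high interferon sums, whose part in the differences was not tested.

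With doxorubicin, 0 of the 10 genes passed between WT and the 2 KO libraries, against 0.197% of the 15256 genes tested, or 30 genes by edgeR and 5 by DESeq2, and 433 genes had an unadjusted p under 0.05 by edgeR, or 79 by DESeq2. Their log2 fold changes lay between -0.50 for Mirg and 0.29 for Dlk1. The KO libraries lay on both sides of WT for Dlk1, with log2 ratios of -0.11 and 0.60, for Igf2, with -0.35 and 0.10, and for Meg3, with -0.75 and 0.04. The interaction of genotype and doxorubicin, which asks whether KO and WT respond differently, passed for 0 of the 10 genes and 0% of the 15905 genes tested, with 41 at an unadjusted p under 0.05 by edgeR, while DESeq2 called 0 and had 24. Over all genes, 8 passed the interaction with the embryo as a block, and 13 without KO embryo 1 or without KO embryo 2. These comparisons share libraries. Of the other lists, 1 gene passed between KO and WT, the endothelial Emcn with doxorubicin, at -1.93 (SE 0.193, edgeR FDR 5.49e-20), which was at 73.9 CPM for WT against 18.7 and 20.0 CPM for KO. Treated Het had 16.6 CPM. Untreated Emcn was at 41.0 CPM for WT, 12.2 CPM for Het and 10.1, 11.5 and 13.7 CPM for KO. The single WT embryo was thus high in both treatments. Of the 6 endothelial genes tested with doxorubicin, 4 were higher and 2 lower in KO, with a median of 0.17. With all 9 libraries in a single fit Emcn did not pass, at -1.92 (SE 0.296, edgeR FDR 1.00), and 0 genes did, with 26 at an unadjusted p under 0.05 by edgeR and 5 called by DESeq2 on the groups alone.

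Of the other imprinted genes expressed from the paternal allele, 20 of 26 were tested. With doxorubicin 5 were called higher, Magel2 among them, and 2 lower, beside 21.9% higher and 20.2% lower over all genes, with a median of 0.02. Magel2, a ubiquitin ligase cofactor, and Dio3, the thyroid hormone inactivating deiodinase, were called higher, by 5.20 (SE 0.385, edgeR FDR 2.58e-05) and 4.96 (SE 0.719, edgeR FDR 0.000552) on the log2 scale, a difference within these errors. Magel2 rests on 3 to 16 counts in the control libraries. It thus passed the filter mainly through the treated libraries, and nothing is read from its call. Zdbf2 rose by 1.72 and Peg10 by 1.21. The antisense RNA Airn and Mcts2 fell, with log2 fold changes of -2.28 and -1.27. Dio3, at the far end of the Dlk1 cluster, had 139 counts for WT, 18 for Het and 185, 106 and 11 for KO embryos 1, 2 and 3 without the drug, and 2711, 1567, 2547 and 2640 counts for WT, Het and KO embryos 1 and 2 with it. It rose while Meg3 and Mirg of the same cluster were lower. Rtl1, also a paternally expressed gene of this cluster, was lower in 4 of 4 embryos, at 5 to 37 counts a library. With the block it was at -1.16 and did not pass (edgeR FDR 0.0203).

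Of the other maternally expressed genes, 24 of 30 were tested, of which 6 were called higher, Klf14, Phlda2 and Ascl2 among them, and 4 lower. These counts stand beside the same shares of all genes, and the median was 0.23. Phlda2, a restrainer of placental growth, Ascl2 and Klf14, transcription factors, and Cdkn1c, a CDK inhibitor, were called higher, with log2 fold changes of 4.33, 3.65, 3.59 and 2.06. Klf14 had at most 3 counts in a control library, so that its fitted value depends on the prior count, and Phlda2 at most 8. Klf14 and Phlda2 thus passed the filter through the treated libraries and could only be called higher, and nothing is read from their calls. Ascl2 had 27 and 28 counts in untreated Het and KO embryo 3 and at most 1 in the other control libraries. It thus passed the filter mainly through the treated libraries, and nothing is read from its call. Ube3a, Zim1, Atp10a and Osbpl5 fell, with log2 fold changes of -1.50, -1.18, -1.16 and -0.78. With the block the counts were 8 higher and 4 lower for the paternal list and 8 higher and 5 lower for the maternal list, beside 59.4% of all genes called. Magel2, Klf14, Phlda2 and Ascl2 are among those higher.

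Among the 8 genes of Igf receptors, their substrates and Igf2 mRNA binding proteins, 0 rose and 5 fell, beside 20.2% of all genes lower, and with the block 0 rose and 5 fell, beside 28.8% lower. Insr and Igf1r, the insulin and Igf1 receptors, were at -1.68 (SE 0.287, edgeR FDR 0.00129) and -1.52 (SE 0.369, edgeR FDR 0.00769) on the log2 scale. Igf2bp2 and Irs1 had -1.67 and -1.08, and Igf2bp1 had -1.04. The receptor Igf2r, which clears Igf2, did not pass, at -0.15. The median of the list was -1.06.

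Of 17 imprint maintenance genes 13 were tested, of which 1 rose, the dioxygenase Tet1 at 1.08, and 7 fell, beside 20.2% of all genes lower. With the block 1 rose and 10 fell, beside 28.8% lower. Zfp445, Dnmt1, Smchd1 and Trim28, which keep methylation or repression at imprints, had log2 fold changes of -2.18, -1.94, -1.86 and -0.96, and the median was -0.89. Of the 12 p53 target genes, 1 rose and 1 fell, Sesn1 at 1.23 and Phlda3 at -1.43, beside 21.9% of all genes higher and 20.2% lower, with a median of -0.20. With the block 1 rose and 3 fell, beside 30.6% higher and 28.8% lower.

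The interferon state genes had 0 of 10 called, beside 21.9% of all genes higher and 20.2% lower, and a median of -0.64. With the block 2 of 10 were called higher, a share below the 30.6% of all genes. These were Bst2 at 1.26 (SE 0.185, edgeR FDR 0.000520) and Irf7 at 4.43 (SE 1.03, edgeR FDR 0.00560), and the median of the list was 1.46. Within embryos, Isg15 was higher by 4.57 for WT and 3.68 and 4.64 for KO embryos 1 and 2 on the log2 scale and lower for Het, at -1.15, and of the 10 genes Bst2 and Irf7 were higher in 4 of 4 embryos and the other 8 in 3 of 4, all but Het. Of the other marker lists, beside 21.9% of all genes higher and 20.2% lower, fibroblast genes had 1 of 10 called (Pdgfrb, -2.80), macrophage genes 2 of 8 (Cd68 at 1.12 and Csf1r at -1.11) and proliferation genes 2 of 7 (Top2a at -2.33 and Mcm2 at -1.68). Endothelial genes had 2 of 5 called (Cldn5 and Emcn, both higher), epithelial genes 3 of 4 (Krt5 and Epcam higher, Krt18 lower), glia and neuron genes 2 of 7 (Elavl3 higher, Sox10 lower) and adipocyte genes 1 of 4 (Cebpa higher). Cldn5 and Krt5 had at most 1 count in a control library, Epcam at most 7 and Elavl3 at most 9, so that they passed the filter through the treated libraries and could only be called higher, and nothing is read from these counts. Skeletal muscle and cartilage genes had 0 of 4 and 0 of 3 called, and of the fetal liver genes 0 were tested, with Apoa2 and Serpina1a at 0 in all libraries. With the block, beside 30.6% of all genes higher and 28.8% lower, the counts were 4 of 5 for endothelial genes, 1 higher and 4 lower of 7 for proliferation genes, 1 higher and 2 lower of 10 for fibroblast genes, 4 of 4 for epithelial genes, 2 of 4 for adipocyte genes, 2 of 3 for cartilage genes and 1 of 4 for muscle genes. Among the endothelial genes called were Cldn5 and Pecam1, which had at most 2 counts in untreated WT and KO embryos 1 and 2. The epithelial Krt5, Epcam and Cdh1 had at most 8 counts in a control library and passed the filter through the treated libraries. Nothing is read from their calls or from those of Cldn5 and Pecam1.

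For each of the 10 genes, the genes with the most similar course over the 9 libraries were found by the mean absolute difference of centred log2 CPM, among 9241 genes with at least 1 CPM on average and a standard deviation of at least 0.5. Nearest to Igf2 were Ptgfrn, Crtap and Chpf, with differences of 0.11, 0.14 and 0.14, and H19 came at place 164 with 0.29. Nearest to H19 were Pcdhga7, Mcm4 and Col3a1, to Dlk1 Cd109, Fbln5 and Kcnj15, to Mest Fgf5, Igfbp4 and Htra3, and to Plagl1 Foxo1, Mid2 and Klhl29. Peg3 was nearest to Ttc3 (0.08), Zfp518a and Def8, and Grb10 to Wnt5a (0.09), 2310022B05Rik and Kifap3. Meg3 was nearest to Csf2ra (0.25), Pisd-ps1 and Mir22hg, Rian to Cebpd, Etohi1 and Tmem126b, and Mirg to Gng8, Commd2 and Gm5512. Of the 10 genes, Igf2 and H19 were each other's nearest, and the nearest to Meg3 was Mirg, at place 240 with 0.73.

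Small RNA genes of the Dlk1 to Dio3 interval made up 66 entries of the table. Of the 59 microRNA genes 33 had a count in any library, which in libraries of long RNA is of reads over the hairpin locus and not of mature microRNA, and reads that also cover a host exon may be counted for neither. Their sum was 42 counts for WT, 132 for Het and 64, 64 and 163 for KO embryos 1, 2 and 3 without the drug, and 10, 26, 8 and 7 for WT, Het and KO embryos 1 and 2 with it. They were thus high in Het and KO embryo 3 and low with the drug, as Mirg was. Of the 7 snoRNA genes, AF357359 inside Rian had most, with 216, 714, 196, 175 and 926 counts in the control libraries and 159, 133, 88 and 145 with doxorubicin. Mir675, inside an exon of H19, was at 0 counts in all libraries.

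All 59 microRNA genes had entries in the RefSeq microRNA table (GRCm38.p6), with 109 mature sequences, of which 14 shared a seed, bases 2 to 8, with another of them. Mir3072 inside Mirg, at chr12:109747878-109747960, had the most counts, with 19, 37, 16, 23 and 54 in control and 7, 4, 3 and 3 with doxorubicin. Its mature sequences are shown as those of the most counted precursor, with the seed in capitals. The 2 arms have different seeds.
miR-3072-5p: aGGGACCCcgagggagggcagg
miR-3072-3p: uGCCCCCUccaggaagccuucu

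Promoter windows of 300 bases (RefSeq, GRCm38.p6) were given for 9 of the 10 genes, not for H19, 16 windows in all, and were searched on both strands for the cAMP response element TGACGTCA and the TATA box core TATAAA. Of 32851 promoters, 1.79% held the first and 13.6% the other. The cAMP response element letters occurred in 2 of the 16 windows, that of Peg3 and 1 of the 2 of Meg3. Mirg and Grb10, which were lower with doxorubicin in 4 of 4 embryos as Peg3 and Meg3 were, had no match in their windows, but the gene starts annotated by GENCODE for Mirg, Grb10, Mest and Plagl1 lie outside the windows and were not searched. TATAAA occurred in the same Meg3 window alone, on both strands at overlapping places. The windows lie at chr7:6730370-6730669 on the minus strand for Peg3 and at chr12:109540746-109541045 on the plus strand for Meg3, with the matches in capitals. A match is a description of the letters and not of a bound site.
Peg3: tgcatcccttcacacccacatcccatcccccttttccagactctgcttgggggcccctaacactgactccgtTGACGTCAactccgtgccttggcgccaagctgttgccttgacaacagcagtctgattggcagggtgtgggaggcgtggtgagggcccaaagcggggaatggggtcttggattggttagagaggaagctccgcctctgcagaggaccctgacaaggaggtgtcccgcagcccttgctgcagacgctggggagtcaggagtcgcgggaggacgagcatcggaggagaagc
Meg3: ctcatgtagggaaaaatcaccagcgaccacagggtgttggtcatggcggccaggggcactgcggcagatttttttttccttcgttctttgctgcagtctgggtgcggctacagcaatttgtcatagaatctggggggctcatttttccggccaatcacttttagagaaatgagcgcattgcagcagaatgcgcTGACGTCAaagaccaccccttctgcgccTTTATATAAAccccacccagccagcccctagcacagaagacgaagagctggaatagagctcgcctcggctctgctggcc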

How the data were processed

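RNA was depleted of rRNA and enriched for mRNA. The authors aligned reads to mm10 by HISAT2, and HTSeq (union mode) assigned them to iGenomes genes, with reads over overlapping genes counted for neither; the deposited values are whole-number counts without normalization. The methods and the submitters' processing notes differ on the version of HISAT2, and the strand setting is not given in the sources used here, so values of overlapping and antisense genes are uncertain. Counts were analysed with R 4.3.3, edgeR 4.0.16 (TMM, filterByExpr, glmQLFit and glmQLFTest), limma 3.58.1 and DESeq2 1.42.0, and described with pandas 2.3.3. Log2 CPM used a prior count of 2, and exon lengths and coordinates are from GENCODE vM21 (GRCm38). P-values between KO and WT rest on the spread of the KO libraries. Both libraries of an embryo share its number in the labels. As a check, the differences between KO embryos 1 and 2 in control and with doxorubicin had a Pearson correlation of 0.476 across 13860 genes, which are not independent replicates. Named were the 10 genes in every comparison, of each other list the genes past the threshold (at most 4 in each direction by size of change) or else its counts, and the 3 genes nearest in course to each of the 10. Igf2bp1, Igf2r, Mrc1, Isg15, Rtl1 and the small RNAs were named beyond this rule after their values were seen. Alternatives were DESeq2, other filters, thresholds and library sizes, RUVg written anew, the block, and leaving out embryos. The members and lists were chosen with earlier results of these data known. The fits were also tried on simulated data, and no result given here rests on that. The limit of 3 counts covers counting error only.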

Additional observations from a re-analysis of the deposited data

Results flagged for a closer look

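The change of H19 with doxorubicin had the opposite direction in WT and in both KO embryos. Its log2 change was 0.044 in WT, -0.19 in KO embryo 1 and -0.14 in KO embryo 2. In Het it was 0.13. The difference was not tested on these values. In the fit of the interaction of genotype and doxorubicin H19 did not pass, and its sign depended on the control library of KO embryo 3, which is low for H19 and has no treated partner. The log2 difference was 0.22 with that library (standard error 1.28, edgeR FDR 1.00), -0.23 without it (standard error 0.306, edgeR FDR 1.00) and -0.21 with the embryo as a block (standard error 0.236, edgeR FDR 1.00).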

How the results depend on the processing

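Of the genes tested for doxorubicin, 3393 passed at an FDR of 0.001, 1911 in KO alone and 9923 without the Het libraries and KO embryo 3, beside 6266 in the fit reported, and of the 10 genes 1, 1 and 4 passed. With 1 embryo left out these counts went from 2809 (without KO embryo 2) to 8971 (without KO embryo 3) genes and from 1 to 4 of the 10. It was also 4156 without WT and 3344 without KO embryo 1. With the replicate block 8840 genes and 5 of the 10 passed, with complete pairs alone, chosen after the data were seen, 8820 and 5, and with the repeated library as KO embryo 3 6025 and 2. Between KO and WT in control, RUVg written anew with an exact test gave 163 genes and 1 of the 10, Meg3, at 0.56 (FDR 0.00562), and leaving out a KO embryo gave 0 (without KO embryo 3) to 47 (without KO embryo 1) genes and 0 of the 10. Without a KO embryo the comparison with doxorubicin has 1 library a group and no test. With doxorubicin DESeq2 gave 5 genes, a filter of 5 counts in 2 libraries 4, an FDR of 0.05 46 and a single fit of the 9 libraries 0. The interaction had 8 genes with the replicate block and 0 to 13 with a KO embryo left out. The cause was not tested. Testing every gene with at least 1 count moved the median log2 fold change of doxorubicin from -0.02 to 0.23, over other genes. With 1 WT and 1 Het embryo, the spread between embryos of these genotypes is not known.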
